A study of Rattus norvegicus with 6 samples.

Results

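The 10 genes described here serve protein folding in the endoplasmic reticulum (ER) and the unfolded protein response of the liver. They are the lectin chaperones Calr and Canx, the disulfide isomerases Pdia3, Pdia4 and Pdia6, the stress-inducible ER proteins Herpud1, Sdf2l1 and Creld2, and the signalling pair Ern1 and Xbp1. They were chosen by name, as all non-control probes whose accession maps to one of the 10 symbols. This gave 14 probes, all of which passed the filter on dim probes (Ern1 only through the corn oil arrays), and the 10 genes stand among 10257 genes tested on the array. Liver RNA came from male Sprague-Dawley (Crl:CD(SD)) rats, 5 weeks old at purchase, kept on a basal diet. Corn oil was given to 3 animals and o-anthranilic acid (2-aminobenzoic acid), at 1000 mg/kg/day, to 3 others, with 1 single-colour array per rat. The labels give 9 weeks of dosing in the treatment protocol and 28 days in the series design, so the duration behind these values is unsettled.

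Secreted and membrane proteins fold in the ER, where chaperones hold them, isomerases pair their cysteines, and misfolded chains are sent back to the cytosol for degradation. When unfolded protein builds up, the sensor IRE1 (encoded by Ern1) splices the mRNA of the transcription factor XBP1, while the sensors ATF6 and PERK act alongside it, and genes for chaperones and degradation factors are induced. The hepatocyte secretes most of the plasma proteins and carries a large rough ER, so many of these genes are active in unstressed liver.

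In these livers 0 of the 10 genes passed the test for a change with anthranilic acid by limma, where 0 of all 10257 genes (0%) passed too. The signals of the treated and corn oil rats overlapped for each of the 10. Over all genes they failed to overlap for only 19.8%. What did vary was the signal between arrays of a group. Each array came from a different rat and no rat was measured again, so rat and array cannot be told apart. Sdf2l1 and Creld2 differed up to 2.26-fold and 3.29-fold between corn oil rats, far more than between the group means. Corn oil replicate 3 and anthranilic acid replicate 2 had the highest signals of their groups for 7 of the 10 genes, and the lowest signals of their groups for Xbp1.

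Promoter windows are shown first because 5 of the 7 windows at hand held a stress element. The choice by name did not read these letters, but it took genes known for this response. The counts below therefore describe the windows and are not independent of the choice. The windows run from 250 bases before to 50 after the gene's start, in the direction of the gene, and come from RefSeq on the GRCr8 build. The table used holds 7 of the 10 genes, and Pdia3, Pdia6 and Ern1 are not in it. Both strands were searched for the ER stress element ERSE (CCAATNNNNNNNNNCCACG), for ERSE-II (ATTGG, any base, CCACG) and for the core of the unfolded protein response element (TGACGTGG or TGACGTGT). ERSE was found in 4 of the 7 windows, those of Calr, Canx, Creld2 and Xbp1, against 22 of 33469 promoters of that length (0.0657%). ERSE-II was found in 1, that of Herpud1, against 17 of 33469 (0.0508%). The unfolded protein response core was in 0 of the 7, against 332 promoters (0.992%), and no window of the 7 held more than 1 of these matches. The windows of Pdia4 and Sdf2l1 held none of these letters. In the 5 windows below, capitals mark the match, which in Calr and Creld2 lies on the opposite strand. A match describes the letters only, and none of these windows was tested for activity here.
Calr: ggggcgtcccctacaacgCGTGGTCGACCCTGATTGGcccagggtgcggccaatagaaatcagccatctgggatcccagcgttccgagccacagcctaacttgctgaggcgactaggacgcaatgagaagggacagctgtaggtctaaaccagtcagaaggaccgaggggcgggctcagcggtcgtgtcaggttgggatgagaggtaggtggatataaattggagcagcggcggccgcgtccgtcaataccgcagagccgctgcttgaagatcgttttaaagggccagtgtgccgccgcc
Canx: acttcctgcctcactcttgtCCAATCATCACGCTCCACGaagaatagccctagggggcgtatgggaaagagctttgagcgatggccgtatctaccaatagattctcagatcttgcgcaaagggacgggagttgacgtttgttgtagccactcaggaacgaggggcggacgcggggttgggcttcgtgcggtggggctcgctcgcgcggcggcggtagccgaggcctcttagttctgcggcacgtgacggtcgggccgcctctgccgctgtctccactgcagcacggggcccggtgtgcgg
Creld2: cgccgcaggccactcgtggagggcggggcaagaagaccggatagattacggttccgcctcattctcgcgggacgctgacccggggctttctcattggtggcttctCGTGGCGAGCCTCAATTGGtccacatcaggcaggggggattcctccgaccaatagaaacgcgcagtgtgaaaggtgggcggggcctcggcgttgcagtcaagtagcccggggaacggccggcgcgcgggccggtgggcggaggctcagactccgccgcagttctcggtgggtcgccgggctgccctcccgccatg
Xbp1: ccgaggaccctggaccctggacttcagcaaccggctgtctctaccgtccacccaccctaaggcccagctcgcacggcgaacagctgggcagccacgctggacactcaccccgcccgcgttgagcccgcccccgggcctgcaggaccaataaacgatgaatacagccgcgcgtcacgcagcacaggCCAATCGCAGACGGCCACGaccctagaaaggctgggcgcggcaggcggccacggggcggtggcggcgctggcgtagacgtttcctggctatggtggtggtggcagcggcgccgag
Herpud1: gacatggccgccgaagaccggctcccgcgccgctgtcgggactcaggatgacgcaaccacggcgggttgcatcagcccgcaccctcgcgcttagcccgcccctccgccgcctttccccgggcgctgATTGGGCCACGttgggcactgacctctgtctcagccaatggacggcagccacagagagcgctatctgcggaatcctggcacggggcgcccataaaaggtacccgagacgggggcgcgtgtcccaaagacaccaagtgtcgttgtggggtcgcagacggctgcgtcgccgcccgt
The Calr window is chr19:40213117-40213416 on the plus strand, and its match lies 232 to 214 bases before the start. The Canx window is chr10:35157808-35158107 on the minus strand, with the match 230 to 212 bases before the start. The Creld2 window is chr7:121789134-121789433 on the plus strand, with the match 145 to 127 bases before the start. The Xbp1 window is chr14:84604373-84604672 on the plus strand, with the match 65 to 47 bases before the start. The Herpud1 window is chr19:10614658-10614957 on the minus strand, with the match 124 to 114 bases before the start.

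The arrays were close to each other in the signal measures at hand. Between 53.3% and 58.0% of 61657 non-control probes were well above background, the array's 75th percentile ranged from 489 to 523, and no spot was saturated. The low end of both ranges was anthranilic acid replicate 3. Slide 1 carried 5 arrays, the corn oil group in one row and anthranilic acid replicates 1 and 2 in the other, while anthranilic acid replicate 3 was on slide 2. Within slide 1, row and treatment therefore cannot be told apart. Of the hepatocyte markers, 10 of 10 were measured. The log2 of their summed linear signals was 12.13 to 12.18 in corn oil and 12.04 to 12.05 in treated livers. In bulk tissue, fewer cells of a type and less RNA per cell cannot be told apart. Values below are log2 signals relative to the array's 75th percentile, which is 0. They serve to compare arrays at 1 probe, not 1 probe with another.

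Calreticulin (Calr) is the soluble lectin chaperone of the ER lumen and a store of its calcium. Its probe A_44_P300506 read 4.15, 4.50 and 4.73 in corn oil replicates 1, 2 and 3, and 4.18, 4.88 and 4.35 in anthranilic acid replicates 1, 2 and 3. The treated values thus ran from just above the lowest corn oil rat to above the highest. The means were 4.46 ± 0.29 (SD, n = 3) and 4.47 ± 0.36 (SD, n = 3), a difference of 0.01 (SE 0.23, limma adjusted p = 0.988). The 95% interval of the difference ran from -0.54 to 0.56 on the log2 scale, or from 0.690-fold to 1.47-fold.

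Calnexin (Canx) is the membrane-bound counterpart of calreticulin and holds glycoproteins while they fold. At its brighter probe A_44_P111118 the corn oil rats read 3.11, 3.16 and 3.36, and the treated rats 3.07, 3.16 and 2.90. The groups overlapped at their edges, with the lowest value in a treated rat and the highest in a corn oil rat. The difference was -0.17 (SE 0.11, limma adjusted p = 0.567), with an interval from -0.44 to 0.11. The second probe, A_44_P121039, read 0.10, 0.16 and -0.0030 in corn oil, and -0.12, 0.02 and -0.11 in treated livers. Its difference was -0.16 (SE 0.09, limma adjusted p = 0.508), with an interval from -0.37 to 0.06. These were the narrowest intervals among the 14 probes, and both end well short of a doubling or halving.

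Pdia3 (ERp57) is the disulfide isomerase that works with calnexin and calreticulin on glycoproteins. Its probe A_44_P189326 read 3.92, 4.03 and 4.20 in corn oil and 3.65, 4.16 and 3.92 in treated livers, a difference of -0.14 (SE 0.15, limma adjusted p = 0.731). Anthranilic acid replicate 1 lay clearly below the corn oil range, and replicate 3 at its lower edge. Pdia4 (ERp72), an isomerase with additional thioredoxin-like domains, read 2.72, 2.74 and 3.03 in corn oil and 2.58, 2.96 and 2.98 in treated livers at A_44_P493956. Its difference was 0.01 (SE 0.15, limma adjusted p = 0.988), with an interval from 0.783-fold to 1.29-fold. Here treated replicates 2 and 3 were alike, both inside the corn oil range. Pdia6 (P5), which acts on clients held by the ER Hsp70, read 5.41, 5.47 and 5.77 in corn oil and 5.11, 5.63 and 5.35 in treated livers at A_44_P148407. The difference was -0.19 (SE 0.16, limma adjusted p = 0.661), with an interval from -0.59 to 0.21. In all 3 isomerases the lowest signal on any array was that of anthranilic acid replicate 1, and the highest that of corn oil replicate 3.

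Herpud1 is a ubiquitin-like protein of the ER membrane that takes part in the degradation of misfolded ER proteins. Probe A_44_P1047924 read 5.02, 5.34 and 5.52 in corn oil and 5.16, 5.56 and 5.08 in treated livers. The means, 5.29 ± 0.25 (SD, n = 3) and 5.27 ± 0.26 (SD, n = 3), differed by -0.03 (SE 0.18, limma adjusted p = 0.964). The dimmer probe A_44_P137356 read 3.22, 3.45 and 3.52, and 3.23, 3.86 and 3.29, with a difference of 0.06 (SE 0.19, limma adjusted p = 0.913). Both probes were highest in anthranilic acid replicate 2. Without corn oil replicate 3 the brighter probe gave 0.09.

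Sdf2l1 is an ER-resident protein that works with the ER Hsp70 and is induced by the unfolded protein response. At its brightest probe, A_64_P012902, the corn oil rats read 4.10, 4.33 and 5.28 and the treated rats 3.90, 4.85 and 4.30. Highest stood corn oil replicate 3 and anthranilic acid replicate 2 second, and the other 4 rats lay between 3.90 and 4.33. The difference between the groups was -0.22 (SE 0.37, limma adjusted p = 0.833), and its interval, from 0.463-fold to 1.59-fold, does not exclude a halving. The probes A_44_P1056788 and A_64_P019401 gave -0.23 (SE 0.37) and -0.17 (SE 0.35). All 3 probes placed corn oil replicate 3 first and anthranilic acid replicate 2 second. Without corn oil replicate 3 the difference turned to 0.13 at the brightest probe, and without anthranilic acid replicate 1 to 0.0024.

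Creld2 encodes a cysteine-rich ER protein that is secreted in part and is also induced by ER stress. Its probe A_43_P16457 read 1.79, 2.08 and 3.51 in corn oil and 1.74, 2.73 and 2.38 in treated livers. The third corn oil rat thus lay 1.05 above its group mean, the largest deviation among the members' 14 probes. The difference was -0.18 (SE 0.49, limma adjusted p = 0.904), with an interval from 0.391-fold to 2.01-fold. Removal of corn oil replicate 3 turned it to 0.35, and removal of anthranilic acid replicate 1 to 0.09.

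Xbp1 encodes the transcription factor whose spliced form drives chaperone and ER-degradation genes. The probe A_64_P011894, for transcript NM_001004210, read 4.93, 5.21 and 4.27 in corn oil and 4.95, 4.66 and 4.87 in treated livers. The rat of corn oil replicate 3, the highest of its group for Sdf2l1 and Creld2, was the lowest for Xbp1, and so was anthranilic acid replicate 2. The difference was 0.02 (SE 0.24, limma adjusted p = 0.980), with an interval from 0.674-fold to 1.53-fold. Without corn oil replicate 3 it was -0.25. A single probe signal does not tell the spliced from the unspliced form, so Xbp1 splicing was not measured here.

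Ern1 encodes IRE1, the kinase and endoribonuclease that splices Xbp1 mRNA. Its probe A_64_P026463 was close to background, well above it on 3 of 3 corn oil arrays and on 1 of 3 treated arrays. It read -3.94, -3.77 and -4.29 in corn oil and -4.56, -4.15 and -4.66 in treated livers, so that only anthranilic acid replicate 2 reached into the corn oil range. The fitted difference was -0.46 (SE 0.19, limma adjusted p = 0.409). Because the probe passed the filter only through the corn oil group, where it was higher, and 2 of 3 treated signals were not well above background, this value gives neither a size nor a limit for Ern1. With normexp background correction it was -0.08, and with slide as a block -0.36 (limma adjusted p = 0.570).

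**Figure D1:**
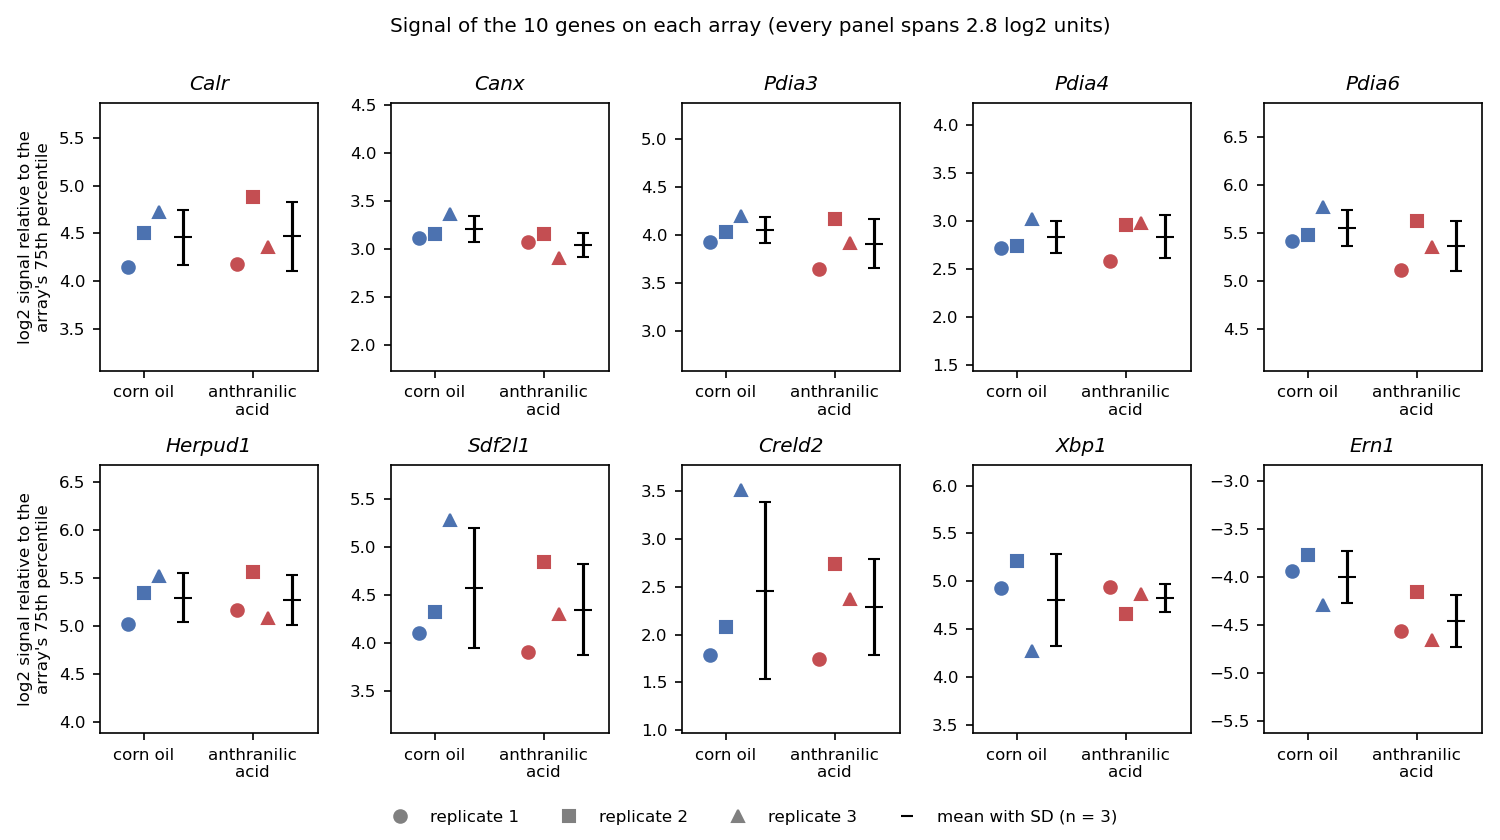
Log2 signal of the 10 genes (brightest probe of each) on the 3 corn oil arrays (blue) and 3 anthranilic acid arrays (red), relative to the array's 75th percentile, with a symbol shape per replicate and the group mean with SD in black. The 2 groups overlap in every panel, and the widest spread is that of Creld2, from 1.79 to 3.51 in corn oil.

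By limma over all tested probes, 0 of the members' 14 probes passed at adjusted p under 0.05, where 11 of 33428 probes (0.0329%) did. For genes the count was 0 of 10 against 0 of 10257 (0%). At unadjusted p under 0.05 it was 0 of 10 against 11.6% of genes, and 0 of 14 probes against 12.2% of probes. The groups did not overlap for 0 of the 10 genes, against 19.8% of all genes, and for 0 of the 14 probes, against 20.3%. The median difference of the 10 genes was -0.15, with 7 of 10 below 0, beside 0.01 over all genes, of which 48% were below 0. That median moved with single arrays. Without corn oil replicate 3 it was 0.01 and without anthranilic acid replicate 1 it was -0.0025, each with 5 of 10 below 0. Leaving out any other array gave -0.12 to -0.24, with 8 or 9 of 10 below 0. With normexp, median scaling and quantile normalization it was -0.09, -0.10 and -0.19, with 9, 6 and 10 of 10 below 0. These alternatives were chosen after seeing the data. In the main fit without Ern1 the median was -0.14, with 6 of 9 below 0. A p that misses the threshold does not show that the groups were alike. For the 9 genes above background on all 6 arrays the fitted intervals stay inside a doubling or halving except those of Sdf2l1 and Creld2.

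**Figure D2:**
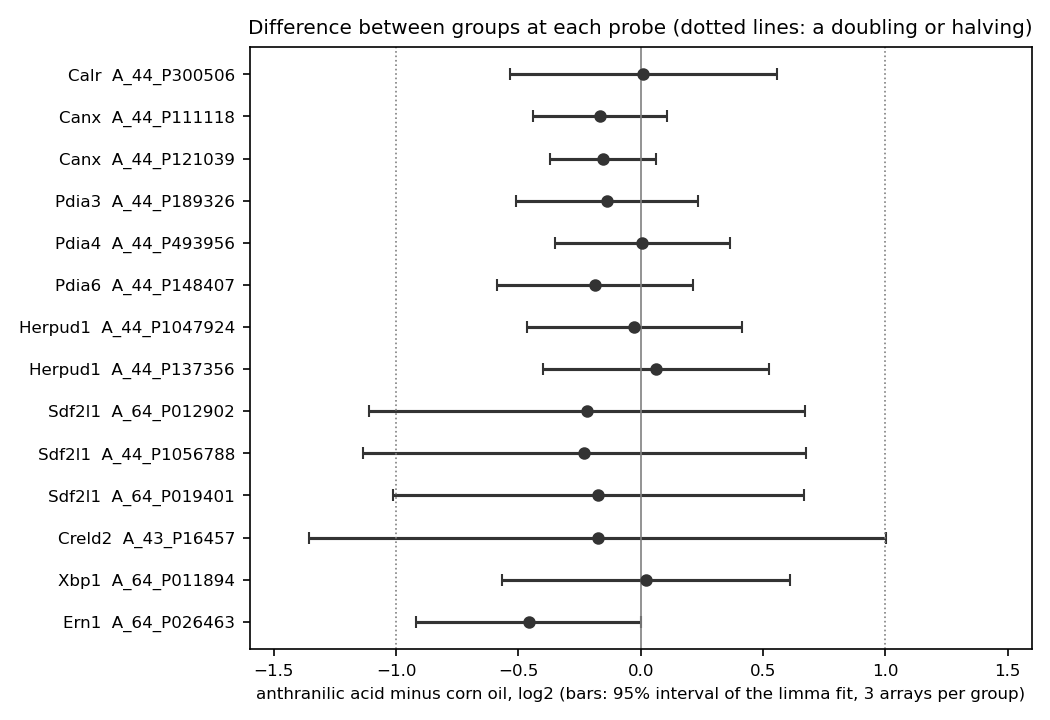
Difference between anthranilic acid and corn oil on the log2 scale at each of the 14 probes, with the 95% interval of the limma fit. All intervals include 0, and those of the Sdf2l1 and Creld2 probes are the widest.

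The spread between rats of a group was uneven among the members. The standard deviation within groups, pooled over both, was 0.74 for Creld2 and 0.55 for Sdf2l1, at the 97.5th and 94.9th percentile of all tested probes. It was 0.36 for Xbp1, 0.33 for Calr, 0.27 for Ern1 and 0.26 for Herpud1, that of Ern1 from signals close to background. The isomerases lay lower, at 0.20 to 0.23, and Canx at 0.13 fell in the lower part of all probes, at the 38.5th percentile. The dimmer Canx probe was lower still, at 0.08. The median over the 10 genes was 0.26, beside 0.15 over all genes.

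**Figure D3:**
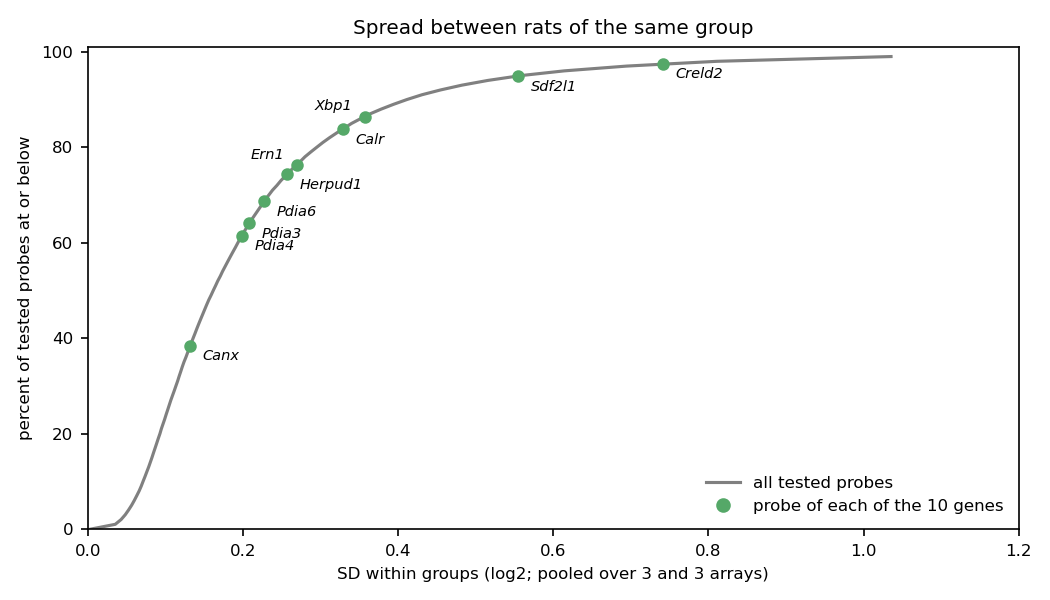
Standard deviation within groups of the probe of each of the 10 genes (green), on the cumulative curve of all tested probes (grey, drawn to its 99th percentile). Canx is the lowest at 0.13, and Sdf2l1 and Creld2 are the highest at 0.55 and 0.74.

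The spread followed the same arrays from gene to gene. Corn oil replicate 3 was the highest corn oil array for 8 of the 10 genes, all but Xbp1 and Ern1, where it was the lowest. Over all genes it was the highest for 37.3%. Anthranilic acid replicate 2 was the highest treated array for 8 of the 10, all but Pdia4 and Xbp1, against 32.1% of all genes. Ern1, counted among these 8, was well above background on only 1 of 3 treated arrays. Both held for 7 of the 10 genes, for 14.2% of all genes, and for 32 of the other 88 measured genes of the ER pathways listed below (36.4%). At the dimmer Canx probe, which does not stand for the gene here, corn oil replicate 3 was the lowest. This order was noticed in the data and is given as a description, without a test. It was the same for the 10 genes, 7 of 10, with normexp correction, median scaling, quantile normalization and the authors' deposited table. The deviation of corn oil replicate 3 from its group mean had a median of 0.21 over the 10 genes, and that of anthranilic acid replicate 2 a median of 0.28.

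**Figure D4:**
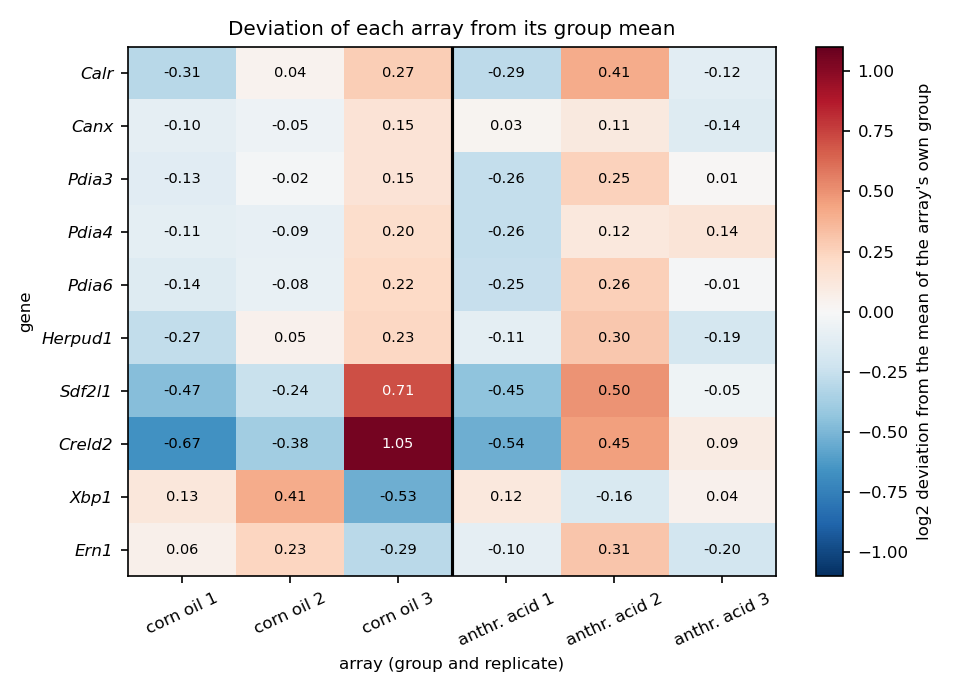
Log2 deviation of each array from the mean of its own group for the 10 genes, red above and blue below. Corn oil replicate 3 reaches 1.05 for Creld2 and -0.53 for Xbp1, and anthranilic acid replicate 2 reaches 0.50 for Sdf2l1 and -0.16 for Xbp1.

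Other measures of these 2 arrays within their groups are given here. The share of probes well above background was highest on them, 58.0% on corn oil replicate 3 and 56.6% on anthranilic acid replicate 2. Markers of Kupffer cells and macrophages were lowest on anthranilic acid replicate 2 for 8 of 8 measured genes. On corn oil replicate 3 they were lowest for 4 of 8 and highest for 2 of 8. The log2 of their summed linear signals ranged from 6.65 to 6.93 in corn oil and from 6.53 to 6.95 in treated livers. Plasma cells are rich in ER chaperones. Of their markers and those of B cells, Jchain, Cd79a and Ms4a1 had no matched probe, and Mzb1 and Tnfrsf17 did not pass the filter on dim probes. The difference was 1.11 (SE 0.22, limma adjusted p = 0.202) for Cd79b and 0.87 (SE 0.19, limma adjusted p = 0.230) for Pou2af1, both without overlap between groups. Both were highest in corn oil replicate 1 and anthranilic acid replicate 3. Sdc1, which hepatocytes also express, stood at 0.35 (SE 0.13, limma adjusted p = 0.389) and was highest in corn oil replicate 3 and anthranilic acid replicate 2. Among other marker lists, the median difference was -0.28 for 3 of 9 pancreas acinar genes measured, -0.01 for 4 of 7 endothelial, -0.07 for 7 of 7 stellate cell and 0.38 for 5 of 6 cholangiocyte genes. The part of these measures in the order of the rats was not tested.

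The wider ER pathways were read from 6 lists written down by function. Of 102 listed genes that are not among the 10, 88 were measured. By limma 0 of the 88 passed, and 2 did at unadjusted p under 0.05, both lower in treated livers, beside 11.6% of all genes. Their median difference was 0.01, with 46 above 0 and 42 below. The groups did not overlap for 7 of 88 (7.95%), a smaller share than the 19.8% of all genes. The genes of each list with the smallest p are given as values, since none passed.

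Among the 16 sensors and transcription factors of the response, all measured, the median difference was -0.01, with 7 above 0 and 9 below. Creb3l3, a liver factor released by cleavage from the ER membrane, stood at -0.32 (SE 0.09, limma adjusted p = 0.294). It read 7.91, 7.89 and 7.87 in corn oil and 7.64, 7.60 and 7.46 in treated livers, without overlap. Atf6b, a relative of the sensor ATF6, was at 0.22 (SE 0.10, limma adjusted p = 0.415), again without overlap. Of 16 listed genes of the ER Hsp70 and Hsp90 systems, 14 were measured, with a median of -0.01. Sdf2, the close relative of Sdf2l1, was at -0.20 (SE 0.08, limma adjusted p = 0.405), from 4.11, 4.15 and 4.11 in corn oil to 3.99, 3.86 and 3.93. Its spread between rats, 0.05, was at the 3.46th percentile, far below that of Sdf2l1. The reductase Dnajc10 was at 0.11 (SE 0.10).

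In the lectin cycle and N-glycan processing, 13 of 17 genes were measured, with a median of 0.05 and 9 of them above 0. The glucosidase Mogs was at 0.17 (SE 0.08) and Prkcsh, the beta subunit of glucosidase II, at -0.12 (SE 0.07), with limma adjusted p of 0.421 and 0.530. Neither overlapped between groups. Disulfide isomerases and ER oxidation were measured for 16 of 19 genes, with a median of -0.11 and 10 below 0. The oxidase Ero1b, which keeps isomerases oxidised, was at -0.22 (SE 0.17) and Tmx2 at -0.16 (SE 0.12). ER-associated degradation had 17 of 21 genes measured, a median of -0.08 and 13 below 0. Nploc4, a cofactor of the segregase VCP, was at -0.17 (SE 0.09), and Ubxn4 at -0.19 (SE 0.11). The translocon and signal peptidase list had 22 of 23 measured, with a median of 0.04 and 18 above 0. Its leading genes were Srpra, the signal recognition particle receptor, at 0.30 (SE 0.15), and Sec63 at 0.26 (SE 0.13). Limma adjusted p in these last 3 lists was 0.453 or more.

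Some further genes are named after their values were seen, because they are the usual readouts of the response. Hspa5, the ER Hsp70 known as BiP, read 6.41, 6.74 and 7.21 in corn oil and 6.55, 7.11 and 6.71 in treated livers, a difference of -0.0010 (SE 0.24). It thus shared the order of the rats seen in Calr. Hyou1, a large ER chaperone, read 4.02, 4.40 and 5.20, and 4.25, 5.02 and 4.49, a difference of 0.05 (SE 0.34). Derl3, of the degradation channel, read 0.76, 0.47 and 1.72, and -0.40, 1.41 and 0.68, a difference of -0.42 (SE 0.52). Dnajb9 (ERdj4), a target of spliced XBP1, read 1.38, 1.67 and 2.32, and 1.27, 2.03 and 1.64. In each of these 4 genes corn oil replicate 3 and anthranilic acid replicate 2 were the highest of their groups. Hsp90b1 and Dnajb11 also had this order, but Atf4 was highest in corn oil replicate 1 and anthranilic acid replicate 1. Among the 16 sensors and transcription factors both arrays were highest for 2, one of them Eif2ak3 (the sensor PERK), beside 14.2% of all genes. Trib3 and Ddit3, known targets of the PERK branch, did not share this order. Trib3 read -0.23, 0.79 and -0.42 in corn oil and 1.25, -0.52 and 1.79 in treated livers, with corn oil replicate 3 and anthranilic acid replicate 2 the lowest of their groups. Its difference was 0.79 (SE 0.63, limma adjusted p = 0.628). Ddit3, the stress factor CHOP, was at -0.46 (SE 0.22, limma adjusted p = 0.458), and read 3.29, 3.22 and 3.22 in corn oil and 2.94, 3.15 and 2.27 in treated livers. Anthranilic acid replicate 2 was thus its highest treated array, but corn oil replicate 1 its highest corn oil array.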

How the data were processed

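Gene expression was measured on single-colour Agilent arrays. Per the file headers, the deposited spot intensity was extracted with Agilent Feature Extraction 10.7.1.1 (10.7 in the submitters' processing notes), with background subtracted, and was not normalized between arrays. The authors' deposited table holds a ratio of that signal to a single value per array, within 0.0355% to 0.126% of its 75th percentile. No source used here states how that table was scaled, and it was used as an alternative.

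The processed signal was log2-transformed and each array's 75th percentile over non-control probes subtracted. Flagged outlier spots (14) were left out. A probe was tested if well above background on all 3 arrays of a group. Probes were named through accessions in the RefSeq table of GRCr8. Probe coordinates, which the headers place on rn4, are left out. A gene is represented by its brightest tested probe. The groups' difference was fitted in limma 3.58.1 (R 4.3.3), on 4 residual and 2.30 prior degrees of freedom, with Benjamini-Hochberg adjustment over 33428 probes at 0.05, and the fit was tested on simulated data. The number of arrays limits the precision.

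The text names all 10 members and, of each pathway list, the 2 other genes with the smallest p. The members and lists were chosen with earlier results of these data known. Replicates are separate animals per the labels. One marker gene is not reported here.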

Additional observations from a re-analysis of the deposited data

How the results depend on the processing

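The call of 0 member probes was the same under all 15 alternatives run, among them normexp background correction (offset 50, on median spot signals, since the files hold no mean), 2 scalings, 2 filters, slide and replicate number as blocks, another variance model, the deposited table and each array left out. The smallest limma adjusted p of any member probe in them was 0.331. The mean of a gene's probes called 0 members too. Requiring signal above background on all 6 arrays left no value for Ern1. None of the 6 pathway lists gained a called gene.

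Differences close to 0 changed sign. With normexp Calr was at -0.025 and Xbp1 at -0.0037. Median scaling put Herpud1 at 0.025. Quantile normalization put Calr at -0.045, Pdia4 at -0.016 and Xbp1 at -0.020. Blocking on slide, equal to comparing the 5 arrays of slide 1, gave -0.062 for Pdia4, 0.069 for Herpud1 and -0.0022 for Xbp1. The mean of its 2 probes put Herpud1 at 0.019. With 1 array left out, Calr ranged from -0.19 to 0.16, Pdia4 from -0.062 to 0.14, Herpud1 from -0.17 to 0.088 (second probe -0.14 to 0.18), Xbp1 from -0.25 to 0.22 and Creld2 from -0.51 to 0.35. The 3 Sdf2l1 probes ranged from -0.47 to 0.13, from -0.48 to 0.14 and from -0.41 to 0.19.

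The count of all probes called was 11. It was 50 with normexp, 21 with median scaling, 45 with a trended robust variance, 6 with slide as a block, 2 without the filter, 2 with signal on all 6 arrays and 4 to 21 with 1 array left out. The cause was not tested. With the replicate block it was 2, and 0 of the 14 member probes passed (smallest adjusted p 0.398). Deviations of same-numbered arrays correlated across probes at 0.07, -0.05 and -0.04. Such correlations cannot show whether same-numbered rats were handled together, so a pairing by number stays unsettled. Corn oil replicate 3 correlated best with anthranilic acid replicate 2 (0.16).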
